A study of Danio rerio with 18 samples.

Results

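The genes described here encode the factors that move the ribosome along an mRNA, and their transcripts were counted in zebrafish brains with and without functional mfn2. Mitofusin 2, the product of mfn2, is a protein of the outer mitochondrial membrane that acts in mitochondrial fusion. The mutant fish carried the hu3528 allele, labelled as a loss-of-function mutation. The groups were homozygous mutants (Hom, genotype −/−), heterozygotes (Het, +/−) and wild-type siblings (WT, +/+), all aged 4 months. Each of 6 families gave 1 library per genotype, 18 libraries in all. Every library was polyadenylated RNA from whole brains of 2 females and 2 males pooled together. A family is the brood of a single pair of parents, and its genotypes were kept in separate tanks, so genotype and tank cannot be told apart within a family.

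The set holds 8 genes, eef1a2, eef1a1a, eef1a1b, eef1a1l1, eef1b2, eef1g, eef2b and eef2k, which correspond to 8 of the 32057 gene IDs counted. It was chosen by symbol, but with a measured value in view: the lower eef1a2 level of Hom than of WT brains in an earlier look at the same counts selected the family. Values for Hom against WT are therefore a description of the members, without a test. Hom against Het shares the Hom libraries with that comparison, and Het against WT shares its WT libraries. No ID carries the symbols eef1a1a or eef1a1b as written. The 2 IDs that carry EEF1A1, ENSDARG00000069951 and ENSDARG00000039502, stand for them, and the symbol table does not say which is which. The symbols of eef1b2, eef1g and eef2k are written EEF1B2, EEF1G and EEF2K there. All 8 members passed the filter on low counts and were among the 20353 genes tested, and the lowest count of any member in any library was 593.

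Elongation begins when eEF1A, bound to GTP, brings an aminoacyl-tRNA to the ribosome. The eEF1B complex then recharges eEF1A with GTP. In this complex eEF1B2 and eEF1D carry the exchange activity and eEF1G is a structural subunit. The GTPase eEF2 drives the step to the next codon, and the calcium- and calmodulin-dependent kinase eEF2K slows elongation by phosphorylating eEF2. In mammals eEF1A2 replaces eEF1A1 in mature neurons and in muscle, and loss of eEF1A2 in mice leads to degeneration of motor neurons.

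Total counts ran from 21945070 to 42897654 per library. Levels are given as normalized CPM, which are read counts put on a common library size after scaling by the TMM method. Gene lengths were not used, so levels are compared between groups and not between genes. The transcript of mfn2 lay between 25.4 and 34.1 CPM in Hom, between 67.8 and 117 CPM in Het and between 75.2 and 140.2 CPM in WT libraries. Family 2 went against its labels, with 117 CPM in the library labelled Het and 75.2 CPM in the library labelled WT. Both were kept in their labelled groups. In 3 libraries, Hom of family 3 and Het of families 1 and 3, log2 deviations from the median library had an SD of 0.703 to 1.13 over 10609 genes, against 0.191 to 0.288 in the other 15. Oocyte marker transcripts summed to 117 CPM in the Hom library of family 3 and to at most 6.62 CPM elsewhere. Skeletal muscle markers summed to 1626 CPM in the Het library of family 3. Neuron markers were present in every library, and the sum of 23 such genes was never below 12282 CPM. Where these 3 libraries moved a member's value by much, it is given below with and without them.

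The transcript of eef1a2 was lower in every Hom library than in any Het or WT library. It had a lowest, median and highest level of 56.1, 67.5 and 89.3 CPM in Hom brains, of 139, 160.0 and 174 CPM in Het brains, and of 124, 147 and 166 CPM in WT brains. Hom levels did not overlap those of the other genotypes, while Het and WT levels overlapped along most of their ranges. The log2 fold change of Hom against WT was −1.05 ± 0.12 (SE, n = 6 libraries each), so the Hom level was 0.483 of the WT level. Hom was below its WT sibling in 6 of 6 families, with differences from −1.56 in family 6 to −0.79 in family 5. Against Het, the Hom level was lower by a log2 fold change of −1.17 ± 0.12 (edgeR's quasi-likelihood test, adjusted p = 3.46e-04), a test that uses the Hom libraries by which the gene was selected. Het differed from WT by 0.12 ± 0.12 (adjusted p = 0.903), with 4 families higher and 2 lower in Het.

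Without the libraries that stood apart, the eef1a2 difference of Hom from WT was about as large, and that of Hom from Het was smaller. The Hom library of family 3 had 67.2 CPM, close to the median of its group. The Het libraries of families 1 and 3 had 170 and 174 CPM, the highest levels of all libraries. In the 15 other libraries, the log2 fold change of Hom against WT was −1.04 and that of Hom against Het was −1.05 (adjusted p = 3.86e-04). In family 2, eef1a2 stood at 75.7 CPM in the Hom library, 162 CPM in the library labelled Het and 157 CPM in the library labelled WT, so both labelled libraries were above every Hom library. When each of the 18 libraries was left out in turn, Hom against WT ranged from −1.12 to −0.96 and Hom against Het from −1.24 to −1.09. The Hom against Het call was kept in 18 of 18 fits, all of which use Hom libraries by which the gene was selected.

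Because eEF1A2 is known from neurons and muscle in mammals, marker levels of these cells are given beside it. The 23 neuron marker genes summed to 12282, 13701 and 15684 CPM in Hom libraries (lowest, median, highest), to 14649, 15273 and 16173 CPM in Het and to 14333, 15369 and 16380 CPM in WT. The overlap came from the Hom library of family 3 alone, at 15684 CPM. The other 5 Hom libraries, at 12282 to 13910.1 CPM, lay below every Het and WT library. Gene by gene the list was mixed. With all libraries, 10 genes were above 0 and 13 below in Hom against WT. In Hom against Het, 13 were above and 10 below. Their median log2 fold changes were −0.11 and 0.07, beside 0.04 and 0.06 over all genes. Without the 3 libraries that stood apart these medians were −0.14 and −0.18, beside 0.02 and 0.01 over all genes. With all libraries 0 of the 23 genes passed edgeR's test in any comparison, and DESeq2 called 3 lower in Hom than in WT and 6 lower in Hom than in Het. In the 15 libraries that did not stand apart, edgeR called 7 lower in Hom than in WT and 5 lower in Hom than in Het. Of all 20586 genes tested in those 15 libraries, 677 were called lower in Hom than in WT and 377 lower than in Het. DESeq2 on all libraries called 366 and 837 of 20353 genes lower, in the same order. Relative to the neuron marker sum, a ratio chosen after its values were seen, the Hom library had less eef1a2 than its WT sibling in all 6 families. The log2 difference averaged −0.88 ± 0.33 (SD). As eef1a2 was selected for its lower level in Hom than in WT, nothing is read from the direction of this ratio. Skeletal muscle markers summed to 34.1 to 51.1 CPM in Hom, 48.3 to 1626 CPM in Het and 45.6 to 172 CPM in WT libraries. By edgeR's test 0 of their 10 tested genes passed in any comparison, with or without the 3 libraries. DESeq2 on all libraries called 3 of them lower in Hom than in Het. Their median log2 fold change in Hom against Het was −1.34 by edgeR with all libraries and −0.51 without the 3. None of the markers of either list was at 0 in a whole group. The part of these markers in the eef1a2 difference was not tested. In pooled brains, fewer cells that express the gene and less of its RNA per cell cannot be told apart.

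**Figure D1:**
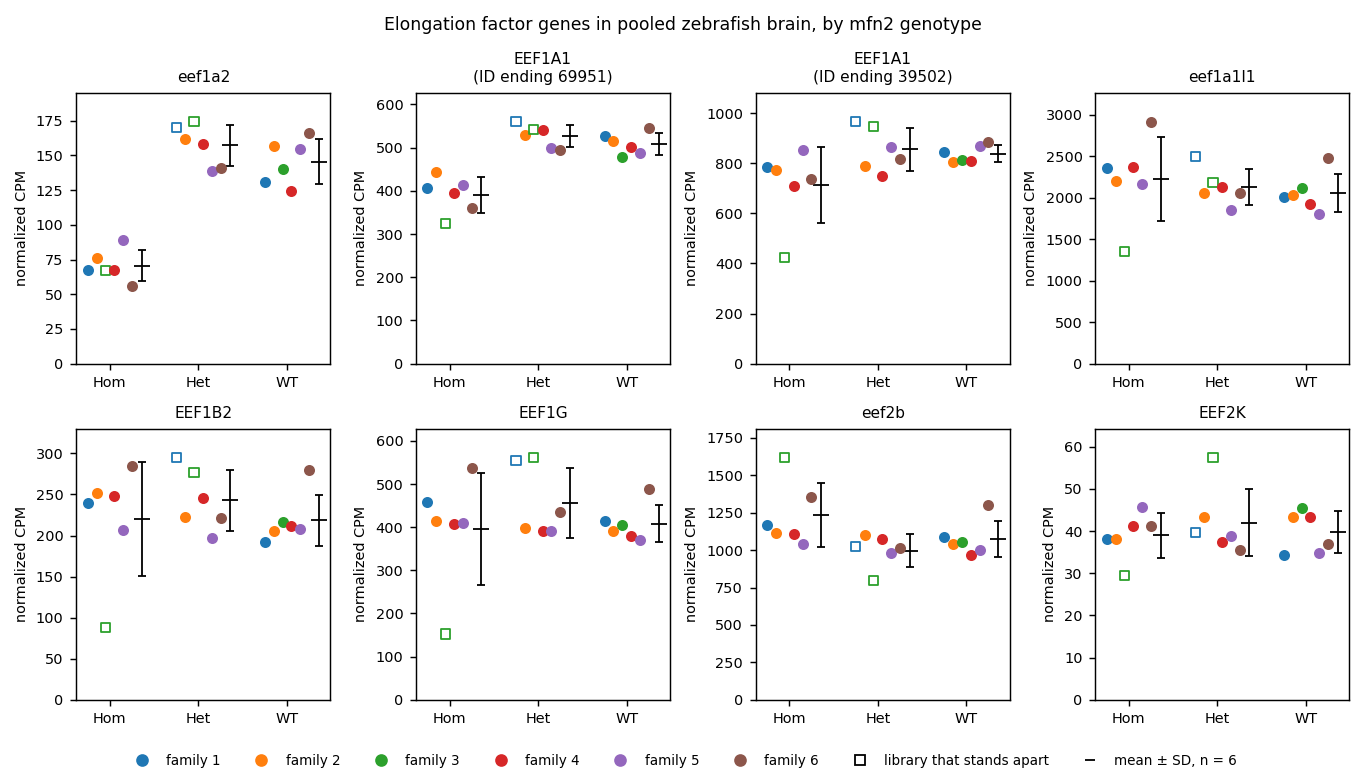
Normalized CPM of the 8 elongation factor genes (vertical axes, each from 0) in Hom, Het and WT libraries, with a point per library coloured by family, open squares for the 3 libraries that stand apart, and bars for the mean ± SD of 6 libraries. Hom points of eef1a2 lie at 56.1 to 89.3 CPM, below all Het and WT points at 124 CPM and above, while those of EEF1B2 and EEF1G overlap the other groups except for the Hom library of family 3.

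Of the 2 EEF1A1 genes, the one with ID ENSDARG00000069951 was also lower in all Hom libraries. It had 324, 401 and 443 CPM in Hom (lowest, median, highest), 495, 535 and 559.9 CPM in Het and 477, 508 and 546 CPM in WT. The highest Hom library was below the lowest library of either other genotype. The mean was 391 ± 42.2 CPM in Hom, against 509 ± 25.6 CPM in WT (SD), and the log2 fold change was −0.39 ± 0.09 (SE), with Hom lower in 6 of 6 families. Against Het the log2 fold change was −0.44 ± 0.09 (edgeR, adjusted p = 0.0261), and Het differed from WT by 0.05 ± 0.09 (adjusted p = 0.904). The value of Hom against Het was −0.35 without the 3 libraries (adjusted p = 0.00758). That call was close to the threshold of 0.05. It held in 9 of 18 fits that each left out a library, and the adjusted p reached 0.0826 in the others, which lacked Hom of family 1, 4 or 6, Het of family 1, 2, 4 or 5, or WT of family 2 or 5.

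The other EEF1A1 gene, ENSDARG00000039502, showed smaller differences. Its lowest, median and highest levels were 424, 755 and 854 CPM in Hom, 751, 840.4 and 965 CPM in Het and 806, 829.6 and 886 CPM in WT. The lowest Hom value was that of family 3, and the other 5 Hom libraries started at 708 CPM and overlapped both other genotypes. The log2 fold change of Hom against WT was −0.25 ± 0.14 and that of Hom against Het −0.28 ± 0.14 (adjusted p = 0.249). Hom was below both siblings in 6 of 6 families, with the smallest log2 difference from WT at −0.03 in family 5. Over the other 15 libraries the values were −0.12 against WT and −0.06 against Het.

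The levels of eef1a1l1 overlapped between genotypes. Levels were 1352, 2287 and 2918 CPM in Hom (lowest, median, highest), 1853, 2096 and 2503 CPM in Het and 1808, 2022 and 2480 CPM in WT. Both ends of the overall range were Hom libraries, family 3 at the bottom and family 6 at the top. The log2 fold change was 0.10 ± 0.14 for Hom against WT, 0.05 ± 0.14 for Hom against Het (adjusted p = 0.843) and 0.05 ± 0.14 for Het against WT (adjusted p = 0.929). Hom was above WT in 5 of 6 families, family 3 being the exception at −0.65. With the 3 libraries left out, Hom averaged 2407 ± 301 CPM (SD, n = 5), against 2062 ± 230 CPM in WT (n = 6), a log2 fold change of 0.24 ± 0.06. Hom against Het was then 0.25 (adjusted p = 0.0547). The eEF1A genes are close in sequence, and reads that fit more than 1 of them may have been divided among them or dropped, since their treatment is not given in the sources used here.

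**Figure D2:**
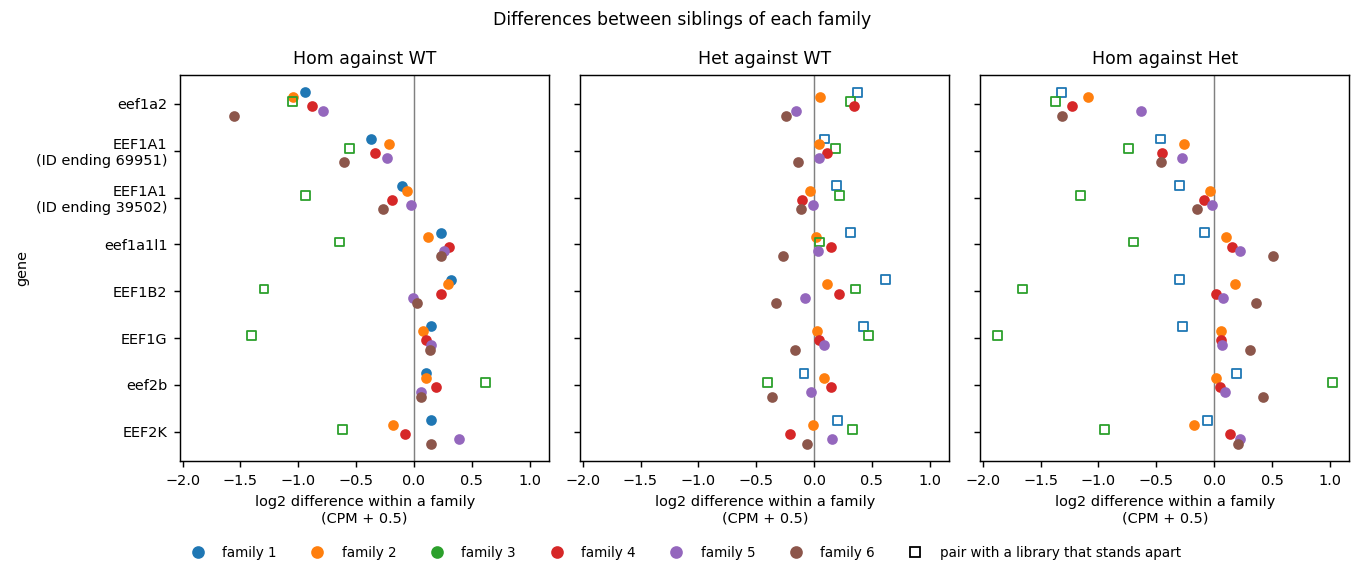
Difference of log2(normalized CPM + 0.5) between siblings (horizontal axes) for each of the 8 genes (rows), with a point per family and open squares for pairs that hold a library that stands apart. For eef1a2 all 6 families lie between −1.56 and −0.79 in Hom against WT and on both sides of 0 in Het against WT, and for eef1a1l1 5 of 6 families lie above 0 in Hom against WT.

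The share of eef1a2 among the read counts of the 4 eEF1A members was lower in Hom brains in every family, while the eEF1A sum overlapped between genotypes. Gene lengths were not used, so this is a share of counts and not of RNA molecules. A further eEF1A gene, eef1a1l3, did not pass the filter, at a mean of 0.141 CPM in Hom, 0.102 CPM in Het and 0.0743 CPM in WT, and is left out of the share and the sum. As a percentage of the counts of the 4 members, eef1a2 made up 1.38%, 2.03% and 3.10% in Hom libraries (lowest, median, highest), 4.01%, 4.27% and 4.58% in Het libraries and 3.70%, 4.01% and 4.65% in WT libraries. The Hom shares did not reach those of the other genotypes, and the highest Hom share was in family 3, where the levels of the other 3 were low. Summed over the 4 members, the level was 2167, 3535 and 4072 CPM in Hom, 3355, 3560.4 and 4198 CPM in Het and 3318, 3512 and 4079 CPM in WT. These sums overlapped, apart from the Hom library of family 3 at the low end.

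On a log2 scale, the ratio of eef1a2 to the sum of the other 3 eEF1A members averaged −5.55 ± 0.41 in Hom, −4.48 ± 0.09 in Het and −4.56 ± 0.14 in WT (SD, n = 6 each). Such a ratio is taken within a library and does not depend on how libraries are scaled. A difference in it shows unequal change and not which gene changed. The mean difference within families was −0.99 ± 0.40 for Hom minus WT and −1.07 ± 0.37 for Hom minus Het, lower in 6 of 6 families each. Het minus WT was 0.07 ± 0.16, higher in 4 of 6 families (exact two-sided permutation test of signs, p = 0.3125; the smallest p that 6 families allow is 0.03125). Against eef1a1l1 alone the mean differences were −1.13 for Hom minus WT, −1.20 for Hom minus Het and 0.07 for Het minus WT.

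**Figure D3:**
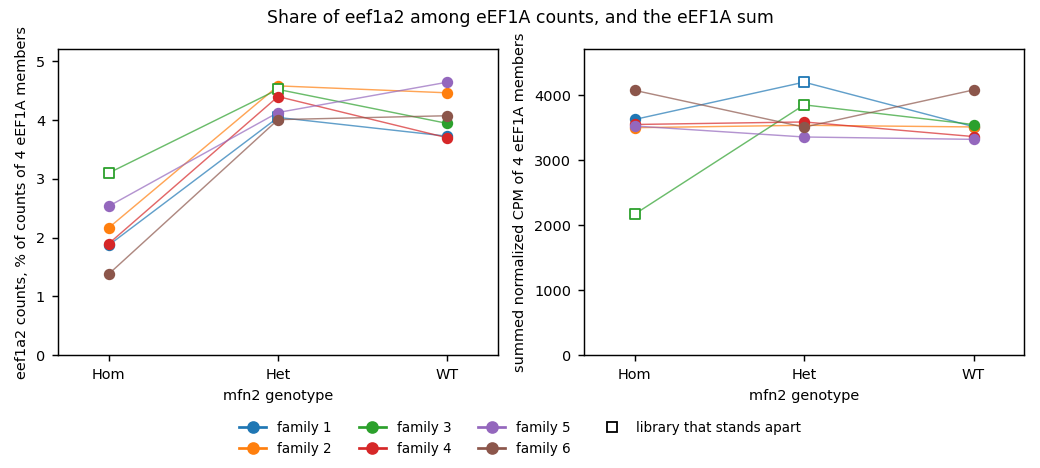
Left, eef1a2 counts as a percentage of the counts of the 4 eEF1A members, and right, the summed normalized CPM of these genes, for Hom, Het and WT libraries (horizontal axes), with lines joining siblings of a family and open squares for libraries that stand apart. Hom libraries hold 1.38% to 3.10%, against 3.70% to 4.65% in WT, while the sums overlap except for the Hom library of family 3 at 2167 CPM.

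Across the 8 genes, Hom against WT gave 0 members higher and 2 lower past edgeR's test at an adjusted p of 0.05, eef1a2 and EEF1A1 (ENSDARG00000069951), where 1.92% of all genes tested passed in either direction. That comparison selected the family, and nothing is read from this count. It fell to 1, eef1a2, in 16 of 18 fits that each left out a library, and without the 3 libraries that stood apart it was 3, with eef1a1l1 higher and the same 2 lower. Het against WT gave 0 of 8 members, with 0 at an unadjusted p under 0.05 and 0 by DESeq2. Over all genes 0.00% were called there, with 524 at an unadjusted p under 0.05 and 2 by DESeq2. Hom against Het gave 2 of 8, the same 2 genes and both lower, where 1.99% of all genes passed. Groups whose levels did not overlap were counted as well. That held for the same 2 members in Hom against WT, as for 3.04% of all genes, and in Hom against Het, as for 3.26% of all genes. It held for 0 members in Het against WT, as for 0.0786% of all genes. The median log2 fold change over the 8 members was −0.05 for Hom against WT, 0.07 for Het against WT and −0.21 for Hom against Het, beside 0.04, 0.01 and 0.06 over all genes. These comparisons share libraries, so their counts do not support each other.

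The 2 members of the eEF1B complex did not pass in any comparison that was tested. The exchange subunit gene EEF1B2 had 87.7, 244 and 285 CPM in Hom (lowest, median, highest), 197, 234 and 295 CPM in Het and 192, 209 and 279.5 CPM in WT. All groups overlapped, and the lowest Hom value was that of family 3. Its log2 fold change was −0.02 ± 0.21 for Hom against WT, −0.19 ± 0.22 for Hom against Het (adjusted p = 0.561) and 0.16 ± 0.21 for Het against WT (adjusted p = 0.903). The structural subunit gene EEF1G had 152, 411 and 538 CPM in Hom, 391, 416 and 561 CPM in Het and 369, 398 and 488 CPM in WT. The low Hom library was again that of family 3, the rest of the group starting at 408 CPM. Its log2 fold change was −0.07 ± 0.22 for Hom against WT, −0.24 ± 0.22 for Hom against Het (adjusted p = 0.479) and 0.17 ± 0.22 for Het against WT (adjusted p = 0.903). When the 3 libraries were left out, EEF1B2 and EEF1G turned to 0.18 and 0.13 for Hom against WT, and to 0.18 and 0.13 for Hom against Het, none of which passed.

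The translocase gene eef2b had a higher mean in Hom brains than in their siblings. It had 1043, 1142 and 1617 CPM in Hom (lowest, median, highest), 795, 1018 and 1102 CPM in Het and 970.3, 1046 and 1305 CPM in WT. The groups overlapped, and the highest level was the Hom library of family 3. Hom was above both siblings in 6 of 6 families, with a log2 fold change of 0.20 ± 0.13 against WT. Against Het it was 0.30 ± 0.13, which did not pass (adjusted p = 0.210). The size of both rested on the Hom library of family 3. Over the other 15 libraries, eef2b was at 0.11 ± 0.07 against WT and 0.15 ± 0.07 against Het (adjusted p = 0.289), and without that Hom library alone at 0.08 against WT and 0.19 against Het. The gene of its kinase, EEF2K, had 29.5, 39.7 and 45.6 CPM in Hom, 35.6, 39.2 and 57.4 CPM in Het and 34.2, 40.2 and 45.5 CPM in WT. The medians of the 3 genotypes differed by less than the spread within any of them. The log2 fold change was −0.02 ± 0.14 for Hom against WT, −0.09 ± 0.14 for Hom against Het (adjusted p = 0.660) and 0.08 ± 0.14 for Het against WT (adjusted p = 0.907). Hom was above WT in 3 families and below it in 3. Over the other 15 libraries EEF2K was at 0.10 ± 0.08 in Hom against WT, and against Het at 0.12 ± 0.09 (adjusted p = 0.50), so its sign turned with the 3 libraries.

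A further eEF2 gene, which carries the symbol EEF2 (ENSDARG00000035256) and is named after its values were seen, had lower levels in Hom brains in 6 of 6 families. It averaged 515 ± 131 CPM in Hom, 722 ± 62.1 CPM in Het and 669 ± 73.1 CPM in WT (SD). The log2 fold change was −0.40 ± 0.16 against WT (adjusted p = 0.271) and −0.52 ± 0.16 against Het (adjusted p = 0.115), neither past edgeR's test. Without the 3 libraries it was −0.25 against WT (adjusted p = 0.0182) and −0.28 against Het (adjusted p = 0.0234). The remaining eEF2 genes, eef2a.1 and eef2a.2, had Hom above WT in 5 of 6 families each, with log2 fold changes of 0.37 ± 0.23 (adjusted p = 0.503) and 0.29 ± 0.28 (adjusted p = 0.674). As copies of the eEF2 gene are close in sequence, their values carry the same doubt about shared reads as the eEF1A genes.

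How the members varied together across libraries is described by Pearson's r of log2(normalized CPM + 0.5). Points share their genotype and family, and r is given without a test. The 2 lowered genes, eef1a2 and EEF1A1 (ENSDARG00000069951), had r = 0.93 over 18 libraries and 0.95 over the 15 left without those that stood apart. Hom libraries form a cluster of their own for this pair, and within the 10 Het and WT libraries of the 15, r was 0.49. A second set, chosen after the values were seen, held eef1a1l1, EEF1B2, EEF1G and eef2b. Its 6 pairs had r of 0.74 to 0.92 over 15 libraries and 0.67 to 0.90 within the 10 Het and WT libraries. Of those 10, the WT library of family 6 was the highest for every gene of this set, and r without it was not computed. Over all 18 libraries the 6 pairs ran from −0.54 to 0.96. In the Hom library of family 3, eef2b was at its highest and EEF1B2 and EEF1G were at their lowest. Between the sets, eef1a2 and eef1a1l1 had r = −0.66 over 15 libraries, but 0.48 within the 10 Het and WT libraries. Within those 10 libraries the sets were not separate. There eef1a2 had r = 0.63 with EEF1B2 and 0.60 with eef2b, and EEF1A1 (ENSDARG00000069951) had r = 0.71 with eef2b, each above the 0.49 of the first set. EEF2K had r between −0.27 and 0.13 with every other member over 15 libraries.

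**Figure D4:**
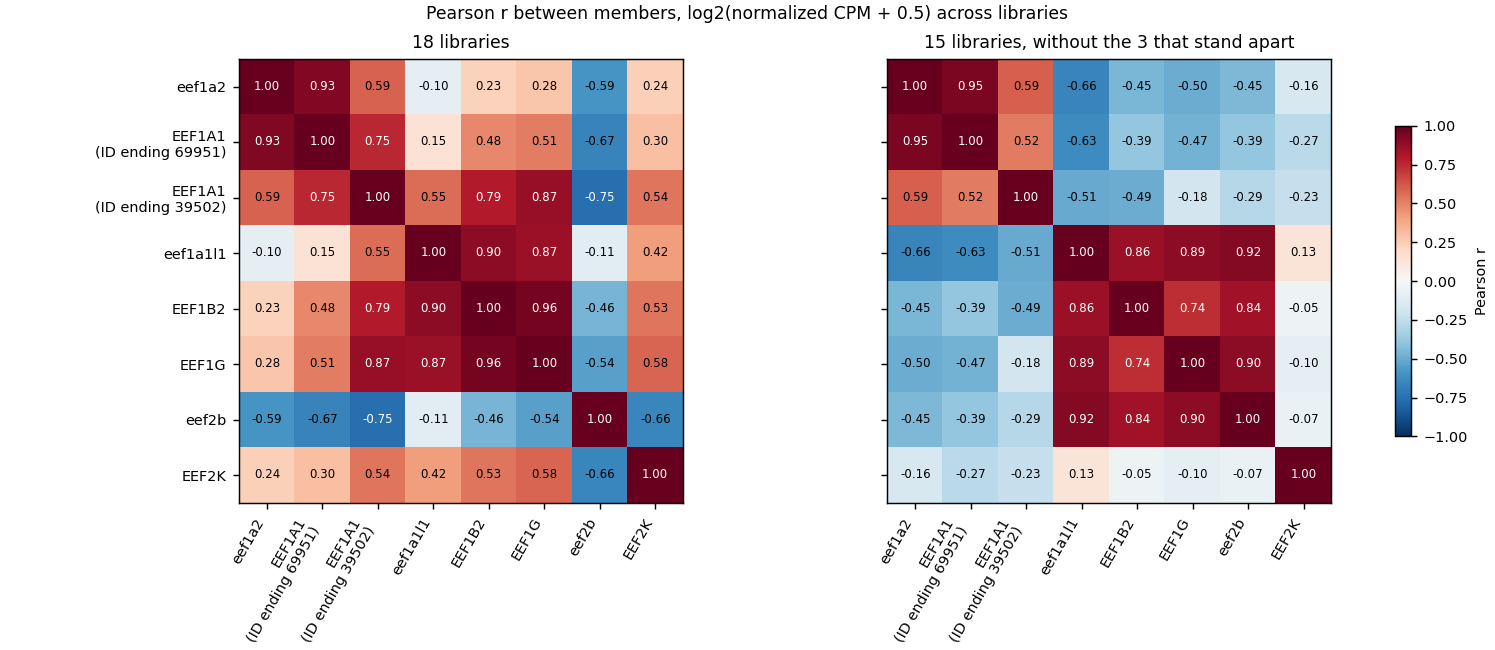
Pearson's r between pairs of members across 18 libraries (left) and across the 15 left without the 3 that stand apart (right), from log2(normalized CPM + 0.5), with colour and printed value giving r. In the right panel, eef1a2 and EEF1A1 (ENSDARG00000069951) form 1 block at 0.95, and eef1a1l1, EEF1B2, EEF1G and eef2b another at 0.74 to 0.92.

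In mammals the mRNAs of ribosomal proteins and of several elongation factors share a start sequence through which their translation is controlled together, so the summed level of 81 ribosomal protein genes was set beside the members. The sum was 8549, 27952 and 32546 CPM in Hom (lowest, median, highest), 25319, 28296 and 38249 CPM in Het and 24087, 25545 and 34493 CPM in WT, and the low Hom library was that of family 3. Over the 15 libraries, r with this sum was 0.84 for eef1a1l1, 0.87 for EEF1B2, 0.83 for EEF1G and 0.88 for eef2b. It was −0.33 for eef1a2, −0.24 and −0.26 for the 2 EEF1A1 genes in the order given above and −0.20 for EEF2K. Over 18 libraries these values turned to 0.33 for eef1a2, 0.58 and 0.87 for the EEF1A1 genes and 0.52 for EEF2K. There eef2b had r = −0.53 with the sum, eef1a1l1 had 0.86, and EEF1B2 and EEF1G each had 0.98. Among the 15 libraries, the WT and Hom libraries of family 6 had the highest sums, at 34493 and 32546 CPM. Values of r without these libraries of family 6 were not computed. The libraries differ in depth and family as well, and r describes them only.

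Tested genes were ranked by their r with eef1a2, leaving out those named only by a clone or an ID. The genes most like eef1a2 in this ranking over the 18 libraries were fxyd7 (r = 0.96), vamp1a (0.96), nefla (0.95), tmprss4b (0.94) and nefma (0.94). Of these, fxyd7 belongs to a family of sodium pump regulators, vamp1a to the vesicle fusion proteins, and nefla and nefma to the neurofilament subunits. Over the 15 libraries the 5 most alike were vamp1a (0.98), CALB2 (0.97), tmprss4b (0.96), fxyd7 (0.95) and MT-ND1 (0.95), CALB2 encoding a neuronal calcium-binding protein and MT-ND1 a subunit of respiratory complex I. Their log2 fold changes for Hom against WT ran from −1.80 (nefla) to −0.46 (CALB2), with eef1a2 at −1.05. In Het against WT they ran from 0.03 (nefma) to 0.28 (tmprss4b). Hom libraries form a cluster of their own for eef1a2, and r within the other genotypes was not computed for these genes.

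Other genes of translation were counted in lists that hold none of the members. Of 202 such genes tested, 2 were higher and 0 lower in Hom than in WT, 0 passed in Het against WT (3 at an unadjusted p under 0.05, 0 by DESeq2) and 2 were higher and 0 lower in Hom than in Het. Both raised genes were the same in each. The first was rps27l, a relative of ribosomal protein S27 that p53 induces in human cells, at 29.4 to 75.5 CPM in Hom, 7.48 to 15.5 CPM in Het and 9.46 to 14.05 CPM in WT libraries. Its log2 fold change was 2.02 ± 0.22 against WT (adjusted p = 3.79e-04) and 2.02 ± 0.22 against Het (adjusted p = 4.95e-04). The second was GTPBP1 (ENSDARG00000053467), whose mouse counterpart is a GTPase related to eEF1A that acts on stalled ribosomes. It was at 117 ± 16.2 CPM in Hom, 90.3 ± 4.93 CPM in Het and 91.0 ± 5.31 CPM in WT, with a log2 fold change of 0.36 ± 0.08 against WT (adjusted p = 0.0456) and 0.37 ± 0.08 against Het (adjusted p = 0.0422). The GTPBP1 call held in 2 of 18 fits that each left out a library, those without the Hom or the Het library of family 3, in each comparison. Against WT the adjusted p in the others reached 0.141. The list holds another ID with the symbol GTPBP1, ENSDARG00000042900, which was not called in any comparison with all libraries.

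Among 6 tested genes for other eEF1 and eEF2 forms, 0 passed edgeR's test in any comparison with all libraries. DESeq2 called 1 of the 6 lower in Hom than in Het, where it called 837 of all 20353 genes lower. Without the 3 libraries, 1 was higher in Hom than in WT, the exchange subunit gene eef1da at 0.46 ± 0.10 (adjusted p = 0.0158), and 1 was lower, EEF2. Of 15 genes for eIF5A, selenocysteine elongation, termination and rescue, 1 passed in Hom against WT, GTPBP1 as given above. Of 11 genes for enzymes that modify eEF1A or eEF2, 0 passed with or without the 3 libraries. Among 19 genes that act on eEF2K, upstream of it or on eEF2 itself, 0 passed with all libraries. The 6 calmodulin IDs in that list had log2 fold changes from −0.52 (calm1b) to −0.27 (CALM2) for Hom against WT. Without the 3 libraries, 6 of the 19 were lower in Hom than in WT, calm1a, calm1b, calm2a, calm3a, calm3b and the kinase gene RPS6KA1, with log2 fold changes from −0.44 to −0.21. By DESeq2 on all libraries 4 of the 19 were lower. Among all genes tested, 1658 of 20586 passed in Hom against WT without the 3 libraries, 677 of them lower. By DESeq2 on all libraries 1054 of 20353 passed, 366 of them lower. In Hom against Het, 5 of the 19 were lower without the 3 libraries and 6 by DESeq2, beside 377 and 837 of all genes. Of 8 mitochondrial elongation genes 0 passed, TUFM, the mitochondrial counterpart of eEF1A, being at −0.39 ± 0.14 (adjusted p = 0.217) with all libraries and −0.25 ± 0.06 (adjusted p = 0.0282) without the 3.

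Of 81 ribosomal protein genes, 1 passed in Hom against WT, rps27l as given above. The median log2 fold change over the 81 genes was −0.11 for Hom against WT, 0.18 for Het against WT and −0.29 for Hom against Het with all libraries, and 0.09, −0.01 and 0.09 without the 3, so its direction turned with them. The initiation factor list was taken by symbol, and also holds genes for kinases and inhibitors of initiation factors and for eIF5A. Of its 64 tested genes 0 passed with all libraries, with a median of −0.09 for Hom against WT. With the 3 libraries left out, 5 were higher and 1 was lower in Hom than in WT, the median being 0.01. The raised genes included EIF4EBP3 (ENSDARG00000041607) at 0.70 ± 0.14 (adjusted p = 0.00838), which encodes an inhibitor of cap-dependent initiation, and eif5b at 0.41 ± 0.11 (adjusted p = 0.0433), whose product joins the ribosomal subunits. Over all genes, 1658 of 20586 tested passed in Hom against WT without the 3 libraries, against 390 of 20353 with them. The rise in calls was not particular to the initiation factor list, and nothing is read from its count.

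**Figure D5:**
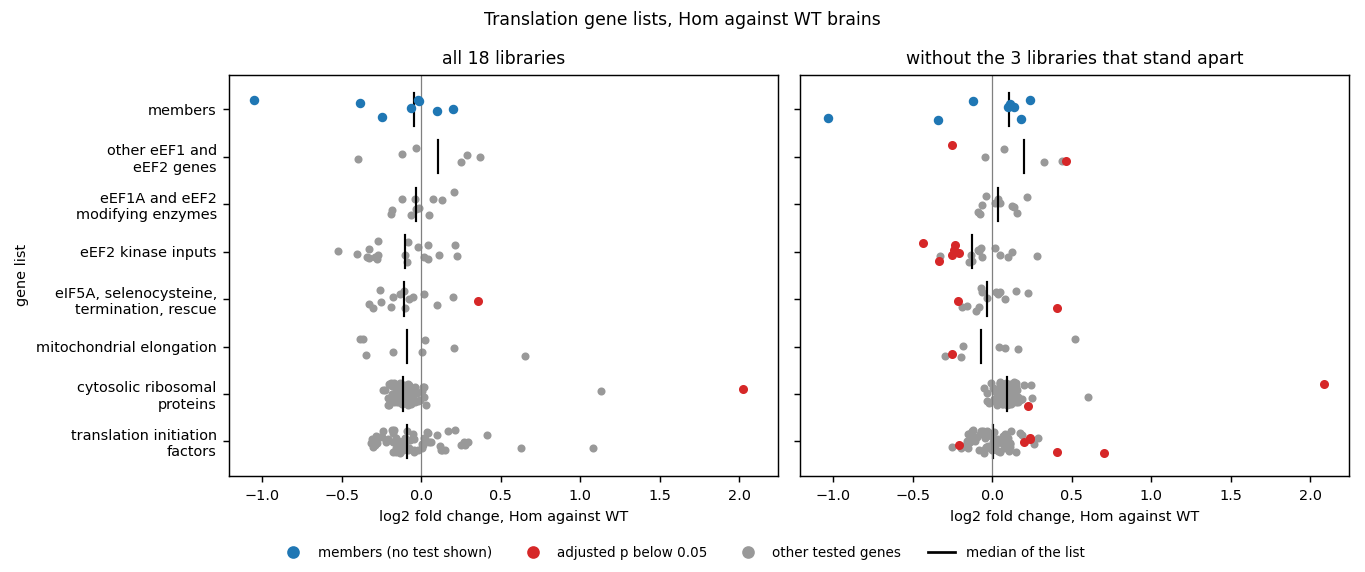
Log2 fold change of Hom against WT (horizontal axis) for the members (blue, no test shown) and the other translation lists (rows), with a point per gene, red where the adjusted p was below 0.05 and a black line at each list's median, over 18 libraries (left) and the 15 left without the 3 that stand apart (right). The ribosomal protein median lies at −0.11 on the left and 0.09 on the right, while eef1a2 is the leftmost point in both, at −1.05 and −1.04. The family was selected for the eef1a2 difference in this comparison, so nothing is read from that position.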

How the data were processed

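The authors deposited 1 table of raw counts per gene, whole numbers with no normalization, for 18 libraries of pooled zebrafish brain. The submitters' processing notes name STAR 2.7.0a, featureCounts of Subread 1.5.2 and the build GRCz11. Annotation release, strand setting and the treatment of multiply mapped reads were not stated in what was used here, so genes with overlapping or near-identical partners are uncertain. Every column found its sample by name, which left 0 unused. Symbols came from a table that named 28988 of 32057 IDs. Of the 8 members, 6 matched by symbol with case ignored. The other 2, eef1a1a and eef1a1b, matched only without their last letter, a step added after the symbol table was seen. With no genome of the files' build at hand, neither coordinates nor sequences are given.

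The test was edgeR's quasi-likelihood test on counts (edgeR 4.0.16, R 4.3.3) with TMM scaling and genotype plus family as model terms for all 18 libraries. The filter filterByExpr ran by genotype at its count of 10 and total of 15. P-values were adjusted by the Benjamini-Hochberg method over the 20353 genes tested, within each comparison, at a threshold of 0.05. Fold changes used a prior count of 0.125. Each SE was obtained from the fold change and the F statistic. Family differences and correlations used log2 of normalized CPM plus 0.5. Procedures were tested on simulated counts.

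Family is 1 mating of 1 pair of parents per the series' design text and was therefore a block in the model. To check the pairing, deviations from genotype means were correlated. Their median r was 0.190 over 18 same-family pairs, 3 of them below 0.1, and −0.0588 over 90 other pairs. No libraries agreed within sampling noise, since chi-square divided by its degrees of freedom was at least 6.77. Alternatives were RLE scaling, DESeq2 1.42.0, no filter, no block, and leaving out each library, the 3 libraries that stood apart, or the libraries labelled WT and Het of family 2.

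The members, gene lists, markers and alternatives were chosen with earlier results of these data known. The text names all members, mfn2, up to 5 genes per list and comparison that passed, and the 5 genes most correlated with eef1a2 in each set of libraries. Genes named only by a clone or an ID were left out of that ranking. EEF2, eef2a.1, eef2a.2, eef1a1l3, eef1da, TUFM, RPS6KA1, the calmodulin genes, EIF4EBP3 and eif5b were named outside that rule, after their values were seen.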

Additional observations from a re-analysis of the deposited data

Results flagged for a closer look

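Each member was checked in each genotype for a single library far from the other 5, by the gap to its nearest neighbour relative to the group's range. Of 24 such groups, 6 had a library beyond the critical value of Dixon's test, where chance gives about 1 in 20. The same libraries recur across members that vary together, so the 24 groups are not independent. No excess over chance is read from the 6. The Hom library of family 3, which stood apart over all genes, was low for EEF1A1 (ENSDARG00000039502), at 424 CPM against 708 to 854 CPM in the other Hom libraries. It was also low for EEF1G, at 152 CPM against 408 to 538 CPM. The WT library of family 6 was high for 3 members of the set that varied with the ribosomal protein genes. It had 279.5 CPM of EEF1B2 against 192 to 216 CPM in the other WT libraries, 488 CPM of EEF1G against 369 to 413 CPM, and 1305 CPM of eef2b against 970.3 to 1087 CPM. The summed ribosomal protein genes in the same library, at 34493 CPM, were also the highest of the WT group. That library is among those from which the r values of the set were taken, so nothing further is read from its levels. The Het library of family 3 was high for EEF2K, at 57.4 CPM against 35.6 to 43.3 CPM in the other Het libraries. No library passed that value for eef1a2 or for EEF1A1 (ENSDARG00000069951) in any genotype. The cause of these deviations was not tested.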

How the results depend on the processing

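The eef1a2 call in Hom against Het was kept under every alternative run. The eEF1A ratio kept its direction in all 27 alternative values. That call, and the ratio differences of Hom from WT and from Het, rest on the Hom libraries by which eef1a2 was selected. Nothing is read from their persistence. Of 840 gene fold changes recomputed, 312 were of calls that passed with all libraries, and 65 of those no longer passed. These were EEF1A1 (ENSDARG00000069951) in 18 fits of Hom against WT and 11 of those of Hom against Het, and GTPBP1 (ENSDARG00000053467) in 18 fits for each. Another 12 passed only under an alternative, and 33 had another sign, none of the 33 with an adjusted p below 0.05. With the 3 libraries that stood apart left out, Het against WT turned to −0.063 for EEF1A1 (ENSDARG00000039502), −0.014 for eef1a1l1, −6.30e-05 for EEF1B2 and −0.024 for EEF2K, and Hom against Het to 0.18 for EEF1B2, 0.13 for EEF1G and 0.12 for EEF2K. When each library was left out, Het against WT ran from −0.082 to 0.073 for EEF1A1 (ENSDARG00000039502), −0.021 to 0.13 for eef1a1l1, −0.011 to 0.26 for EEF1B2, −0.040 to 0.25 for EEF1G and −0.044 to 0.13 for EEF2K. Hom against Het then ran from −0.031 to 0.18 for eef1a1l1, −0.29 to 0.042 for EEF1B2, −0.32 to 0.011 for EEF1G and −0.16 to 0.050 for EEF2K.

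DESeq2 called 1054 genes in Hom against WT, 2 in Het against WT and 1626 in Hom against Het, with 9 other translation genes in Hom against WT and 15 in Hom against Het. Without the 3 libraries, Hom against WT gave 1658 genes, 3 members (1 higher, eef1a1l1, and 2 lower) and 19 other translation genes, and Hom against Het gave 981, 2 and 12. Without the libraries labelled WT and Het of family 2, Hom against WT gave 238 genes and Hom against Het 185, each with 1 member (eef1a2) and 1 other translation gene. With no filter on low counts, each gave 1 member and 1 other translation gene. The cause was not tested.

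Leaving out each library gave 196 to 706 genes in Hom against WT, 0 to 0 in Het against WT and 195 to 662 in Hom against Het. Members ran from 1 to 2, from 0 to 0 and from 1 to 2, and other translation genes from 1 to 5, from 0 to 0 and from 1 to 9. Without the replicate block for family, 341, 0 and 423 genes were called in the same order, with 2, 0 and 2 members, and the block changed no call of a member. Depth did not limit the members, whose lowest count was 593. Precision is limited by 6 libraries per group and by the 3 that stood apart.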

Other observations

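Markers of microglia and macrophages, cells outside the translation lists, had a higher median in Hom brains. Their 11 genes summed to 429, 913 and 1061 CPM in Hom libraries (lowest, median, highest), 431, 503 and 682 CPM in Het libraries and 411, 455 and 559 CPM in WT libraries. The lowest Hom sum was that of the library of family 3, which stood apart, and the other 5 Hom libraries, at 779 to 1061 CPM, were above every Het and WT library. Of these genes 2 rose and 0 fell in Hom against WT by edgeR's test, and 0 passed in Hom against Het. Without the 3 libraries that stood apart, 8 rose and 1 fell in Hom against WT, and 4 rose and 1 fell in Hom against Het. DESeq2 on all libraries called 5 higher and 0 lower in Hom against WT, and 6 higher and 1 lower in Hom against Het. Of all genes tested, edgeR called 1.92% in Hom against WT and 1.99% in Hom against Het with all libraries. Without the 3 libraries it called 1658 and 981 of 20586 genes, and DESeq2 on all libraries called 1054 and 1626 of 20353. The median log2 fold change over the 11 genes was 0.64 for Hom against WT, beside 0.04 over all genes. Oligodendrocyte markers, 9 genes, summed to 6015, 12043 and 16371 CPM in Hom, 12638, 18876 and 25408 CPM in Het and 11137, 15810.3 and 18042 CPM in WT, and 0 of them passed edgeR's test in any comparison with all libraries. In the other 15 libraries 1 rose in Hom against WT, and DESeq2 called 2 lower in Hom against Het. The part of either cell type in the levels of the elongation factor genes was not tested.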
